A study of Mus musculus with 10 samples.

Results

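Genes of cholesterol and fatty acid synthesis were followed in mouse B-cell lymphomas with and without Adriamycin. The set holds 31 genes, listed by their role in these pathways. It was chosen with earlier results of these data known. It covers 7 genes of the mevalonate pathway, 11 of the later steps from farnesyl diphosphate to cholesterol, 7 regulators and transport genes, and 6 genes of fatty acid synthesis. A probe set carrying exactly 1 gene symbol was found for 30 of the 31 genes, of 18193 genes with such a probe set in all. Acat2, a cytosolic thiolase at the entry of the mevalonate pathway, is not analysed here. Where a gene had several such probe sets, the brightest on average was used. All 30 genes passed the filter on low signals, which kept 11472 genes for testing.

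Primary lymphomas were taken from lymph nodes of mice of the genotype Emu-myc;Suv39h1-/-, in which an immunoglobulin enhancer drives Myc in the B-cell lineage and the gene of the histone methyltransferase Suv39h1 is deleted. All cells also carried a retroviral Bcl2, selected with puromycin, and grew on gamma-irradiated NIH 3T3 mouse fibroblasts. The ADR group had received Adriamycin (doxorubicin, a topoisomerase poison used against lymphoma) at 0.05 µg/ml for 5 days in culture, and the untreated group had not. Each group holds 1 array of each of the same 5 lymphomas, lymphoma_5783, lymphoma_7890, lymphoma_9250, lymphoma_1032 and lymphoma_4936, and values of the 5 lymphomas are given below in this order. The design concerns the part of Suv39h1 in therapy-induced senescence, a lasting growth arrest. It has no Suv39h1-proficient lymphoma, and Suv39h1 itself is not analysed here, so the genotype was not checked on the arrays. The labels give no ages of the mice.

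Values are log2 signals, and a change is the ADR signal minus the untreated signal of the same lymphoma. The median signal of the arrays lay between 4.43 and 4.46 on 4 ADR arrays, at 4.15 on the ADR array of lymphoma_1032 and between 4.44 and 4.50 on the untreated arrays. Of the B-cell markers 9 of 10 had a named probe set and all 9 were tested. Of these 9, all but Pax5 exceeded the table's median of 4.43 on all 10 arrays, and Pax5 exceeded it on 9. In such bulk samples fewer cells of a type and less RNA per cell cannot be told apart.

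Cholesterol is built from acetyl-CoA through mevalonate, isoprenoid diphosphates, squalene and lanosterol. The enzymes of this route share a regulator, the transcription factor SREBP2 (gene Srebf2), which sits as a precursor in the endoplasmic reticulum with its escort Scap. When membrane sterol is scarce, Scap carries SREBP to the Golgi, where it is cut and released to the nucleus, and when sterol is plentiful the Insig proteins hold it back. SREBP1 (gene Srebf1) acts more on fatty acid genes, and dividing lymphocytes are known to need both routes for new membranes.

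The promoters of this family are known for short elements that bind SREBP together with the factor NF-Y, and some of them are printed here. Whether such elements had a part in the changes below was not tested. RefSeq promoters of GRCm38.p6, 250 bases before to 50 bases after an annotated start, were matched by symbol for 24 of the 30 measured genes. Those of Fdps, Fdft1, Sqle, Stard4, Scd1 and Scd2 were not matched, so the shares below leave these genes out. The letters searched on both strands were TCACNCCA, the core of a sterol regulatory element, CCAAT, the NF-Y box, and CACGTG, an E-box. Capitals mark these motifs, so that ATTGG is a CCAAT on the other strand. Hmgcs1 and Msmo1 hold a sterol element core, Insig1 holds a CACGTG and Fasn holds neither.

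Hmgcs1, chr13:119690101-119690400, plus strand: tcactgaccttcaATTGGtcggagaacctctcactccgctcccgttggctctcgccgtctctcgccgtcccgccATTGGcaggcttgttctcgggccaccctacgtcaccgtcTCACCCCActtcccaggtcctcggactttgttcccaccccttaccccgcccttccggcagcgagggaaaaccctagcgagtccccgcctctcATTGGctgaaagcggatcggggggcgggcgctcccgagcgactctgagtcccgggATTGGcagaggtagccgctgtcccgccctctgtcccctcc
Msmo1, chr8:64733529-64733828, minus strand: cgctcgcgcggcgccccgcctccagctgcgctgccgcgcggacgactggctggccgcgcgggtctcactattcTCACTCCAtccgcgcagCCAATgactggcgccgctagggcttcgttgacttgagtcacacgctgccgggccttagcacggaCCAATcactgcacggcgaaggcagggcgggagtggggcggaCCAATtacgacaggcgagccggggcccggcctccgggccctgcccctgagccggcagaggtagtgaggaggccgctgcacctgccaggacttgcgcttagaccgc
Insig1, chr5:28071162-28071461, plus strand: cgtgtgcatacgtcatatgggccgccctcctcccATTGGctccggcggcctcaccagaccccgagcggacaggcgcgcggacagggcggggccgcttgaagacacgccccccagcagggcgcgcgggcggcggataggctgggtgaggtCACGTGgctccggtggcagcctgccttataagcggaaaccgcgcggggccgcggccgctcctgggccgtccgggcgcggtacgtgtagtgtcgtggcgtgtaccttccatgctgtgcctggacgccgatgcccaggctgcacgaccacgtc
Fasn, chr11:120824498-120824797, minus strand: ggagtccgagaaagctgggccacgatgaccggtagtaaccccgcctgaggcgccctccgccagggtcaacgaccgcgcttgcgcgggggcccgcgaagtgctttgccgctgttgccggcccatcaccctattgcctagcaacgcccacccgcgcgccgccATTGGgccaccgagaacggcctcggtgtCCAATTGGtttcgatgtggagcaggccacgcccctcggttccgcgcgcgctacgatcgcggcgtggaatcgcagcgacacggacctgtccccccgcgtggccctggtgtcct

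The Hmgcs1 promoter holds 4 CCAAT boxes beside its sterol element core, that of Msmo1 holds 3, that of Insig1 holds 1, and that of Fasn holds 3, of which 2 overlap. CCAAT was found in 20 of the 24 promoters (83.3%), against 42.7% of the 9325 tested genes with a promoter. It was present in all 5 mevalonate genes and all 9 sterol synthesis genes that were matched, in 4 of 6 regulator and transport genes and in 2 of 4 fatty acid genes. The sterol element core was found in 3 of 24 promoters (12.5%), those of Hmgcs1, Msmo1 and Srebf2, against 4.56% of tested genes. By role it was in 1 of 5 mevalonate, 1 of 9 sterol synthesis, 1 of 6 regulator and transport and 0 of 4 fatty acid genes. CACGTG was found in 6 of 24 (25.0%), those of Abca1, Dhcr7, Hsd17b7, Insig1, Sc5d and Scap, against 11.7%. A gene with several starts was counted where any of its promoters held the motif, and matches are letters in a window, not measured binding.

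With Adriamycin most of the cholesterol enzymes had lower signals on average, and the fatty acid genes other than Scd1 had mean changes between -0.02 and 0.27. Of the 17 measured enzymes of the mevalonate and sterol synthesis steps, 16 had a negative mean change, with a median of -0.36 that was -0.16 without lymphoma_1032. Of all 30 genes 22 (73.3%) did, with a median of -0.27, against 55.2% and a median of -0.02 over all genes tested. None of these single changes passed the test: 0 of the 30 genes had an adjusted p under 0.05 in limma, against 0 of 11472 genes (0%), and the smallest adjusted p was 0.565 among the 30 and 0.551 over all genes. At an unadjusted p under 0.05, 5 of the 30 genes were lower and 0 higher, against 518 lower (4.52%) and 455 higher of all genes. These 5 were Hmgcs1, Pmvk, Fdft1, Sqle and Scd1. The plot of mean changes shows all 30 with their intervals. For 0 of the 30 genes did the ADR signals lie wholly above or below the untreated signals, which held for 0.357% of all genes.

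**Figure D1:**
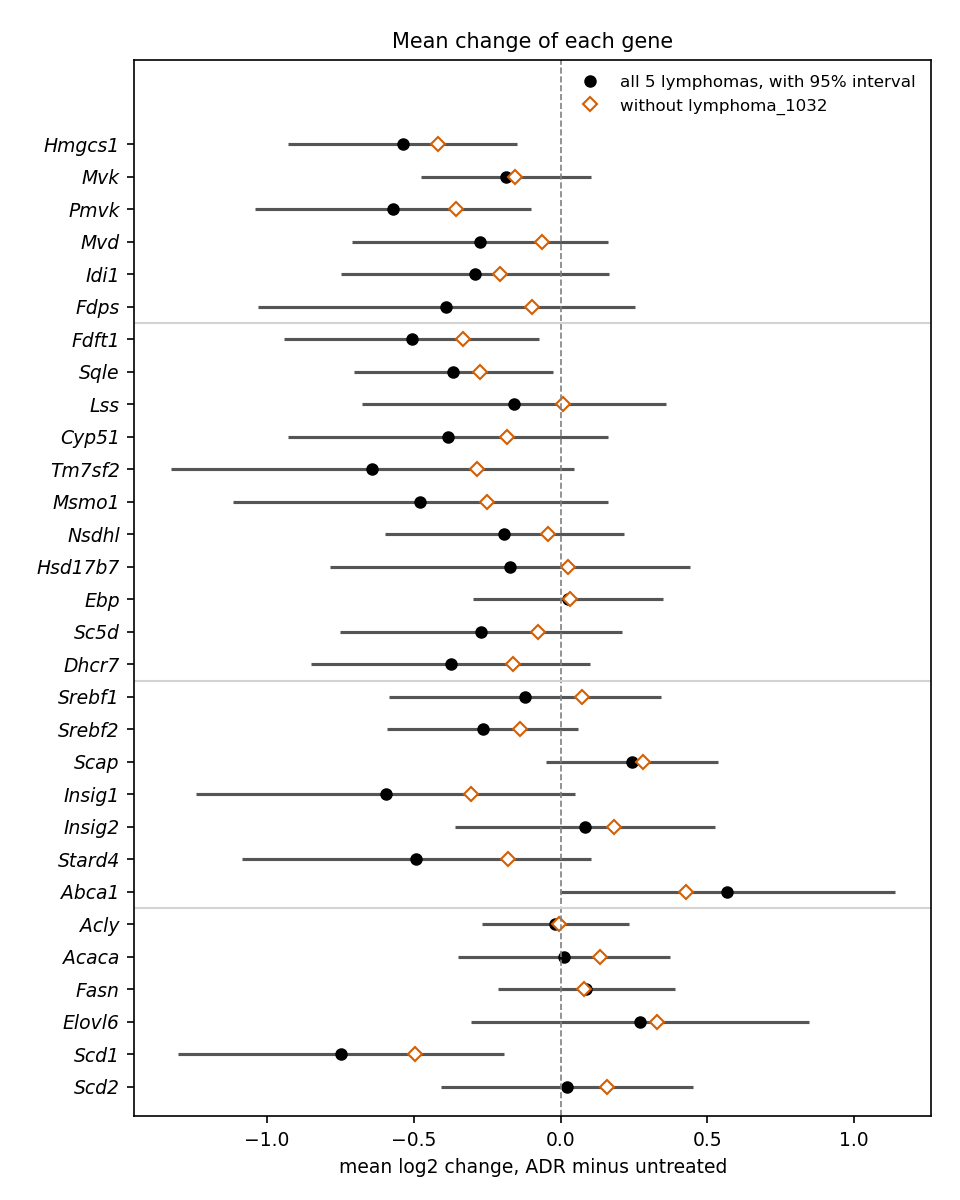
Mean log2 change (ADR minus untreated) of each of the 30 measured genes over 5 lymphomas, with the 95% interval of the paired limma fit (black) and the mean without lymphoma_1032 (open diamonds). Grey lines separate mevalonate, sterol synthesis, regulator and transport, and fatty acid genes from top to bottom; 16 of the 17 enzymes in the upper 2 blocks lie left of 0, and Scd1 has the lowest mean, -0.75.

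In the mevalonate pathway all 6 measured enzymes were lower on average, with a median change of -0.34 that was -0.18 without lymphoma_1032 and -0.55 without lymphoma_5783. Hmgcs1, the synthase that makes HMG-CoA, had signals of 8.18, 9.06, 9.46, 8.39 and 9.14 in ADR cells, against 8.11, 9.41, 10.17, 9.40 and 9.81 in untreated cells. It was lower with ADR in 4 lymphomas and about level in lymphoma_5783, which had the lowest signal of both groups. Its mean was 8.84 ± 0.54 with ADR and 9.38 ± 0.78 untreated (SD, n = 5 each), a change of -0.54 ± 0.41 with a 95% interval of -0.93 to -0.15 and an adjusted p of 0.565 in limma. That corresponds to 0.689 of the untreated signal. The other 3 Hmgcs1 probe sets above the filter had mean changes of -0.54, -0.59 and -0.76.

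Pmvk, phosphomevalonate kinase, had signals of 5.997, 5.88, 6.64, 6.14 and 7.30 in ADR cells, against 6.32, 6.25, 7.35, 7.57 and 7.33 in untreated cells. It was lower in all 5 lymphomas, by as little as 0.03 in lymphoma_4936 and as much as 1.42 in lymphoma_1032. Its change was -0.57 ± 0.53 (interval -1.04 to -0.10, adjusted p = 0.565 in limma) and -0.36 without lymphoma_1032. Pmvk is 1 of 3 genes in the set, with Srebf2 and Scd1, that were lower in all 5 lymphomas, against 4.82% of all genes. Counting 4 or 5 lymphomas, 13 of the 30 genes were lower, against 26.0% of all genes.

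Idi1, the isomerase that interconverts the isoprenoid building blocks, showed how far lymphoma_5783 stood from the others. Its signals were 7.54, 8.35, 9.19, 7.41 and 8.78 with ADR, against 6.92, 8.88, 9.56, 8.04 and 9.32 untreated. The signal was thus 0.61 higher with ADR in lymphoma_5783 and between 0.37 and 0.63 lower in the other 4, a mean change of -0.29 ± 0.51 that was -0.52 without lymphoma_5783. Fdps, which makes farnesyl diphosphate, had changes of 0.40, -0.16, -0.76, -1.55 and 0.13, a mean of -0.39 ± 0.78 that was -0.10 without lymphoma_1032. Mvk, mevalonate kinase, had changes between 0.17 and -0.40 and a mean of -0.19 ± 0.23. Its other probe set had changes of -0.16, -0.10, 0.11, -1.33 and 0.17, with a mean of -0.26. Mvd, the decarboxylase, had a mean of -0.27 ± 0.48 that rested on lymphoma_1032 (-1.11) and was -0.06 without it. Another Mvd probe set above the filter had changes of 0.13, 0.38, -0.54, -1.28 and -0.53, with a mean of -0.37.

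Of the 11 enzymes from squalene synthesis to cholesterol, 10 were lower on average, with a median change of -0.36. Without lymphoma_1032, 8 of the 11 were, with a median of -0.16. Fdft1, squalene synthase and the first enzyme committed to sterols, had signals of 6.55, 7.21, 7.78, 6.46 and 7.02 in ADR cells, against 6.54, 7.41, 8.53, 7.66 and 7.43 in untreated cells. It was level in lymphoma_5783 and lower in the other 4, most in lymphoma_1032. The change was -0.51 ± 0.48 (interval -0.94 to -0.07, adjusted p = 0.565 in limma) and -0.33 without lymphoma_1032. The other 3 Fdft1 probe sets above the filter had mean changes of -0.51, -0.15 and -0.32. Their mean levels were 7.17, 4.73 and 4.38, the last of these near the table's median of 4.43. The probe set with -0.15 was 0.45 higher with ADR in lymphoma_1032. Sqle, squalene epoxidase, a rate-limiting step, had signals of 7.60, 8.21, 8.74, 7.34 and 8.45 with ADR, against 7.44, 8.66, 9.19, 8.07 and 8.79 untreated. Its change of -0.36 ± 0.33 (interval -0.70 to -0.03, adjusted p = 0.570 in limma) was less uneven than that of Fdft1, and was -0.27 without lymphoma_1032.

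Msmo1, the methylsterol oxidase, had signals of 6.83, 7.50, 7.96, 6.90 and 7.81 in ADR cells, against 6.20, 7.58, 8.66, 8.28 and 8.67 in untreated cells. The ADR signals lay closer together than the untreated ones, since lymphoma_5783, lowest without the drug, was 0.63 higher with it and the 3 highest were 0.70 to 1.38 lower. The mean change was -0.48 ± 0.77 (adjusted p = 0.625 in limma) and was -0.25 without lymphoma_1032 and -0.75 without lymphoma_5783. Tm7sf2, a sterol reductase, had signals of 5.76, 5.41, 6.15, 5.02 and 6.64 with ADR, against 6.13, 5.79, 6.69, 7.09 and 6.48 untreated. Its change of -0.64 ± 0.84 (interval -1.33 to 0.05, adjusted p = 0.579 in limma) held -2.07 in lymphoma_1032 and was -0.28 without it. Cyp51, the lanosterol demethylase, had changes of 0.39, 0.14, -0.61, -1.19 and -0.65, and Dhcr7, a reductase of the last steps, of -0.11, -0.17, -0.55, -1.22 and 0.18. Their means of -0.38 ± 0.64 and -0.37 ± 0.54 were -0.18 and -0.16 without lymphoma_1032, and another Cyp51 probe set had a mean change of -0.58.

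The remaining 5 sterol enzymes had means closer to 0. Lss, which closes squalene epoxide to lanosterol, had a mean change of -0.16 ± 0.60, from 0.63 in lymphoma_5783 to -0.83 in lymphoma_1032. Hsd17b7, a sterol ketone reductase, had changes of 0.84, 0.09, 0.02, -0.96 and -0.84, so that its mean of -0.17 ± 0.74 covered opposite values. Means of Lss and Hsd17b7 were 0.01 and 0.03 without lymphoma_1032. The other Lss probe set above the filter had a mean change of -0.64 ± 1.42, with 1.14 in lymphoma_5783 and -2.75 in lymphoma_1032. Its mean level of 4.36 was near the table's median of 4.43. The other Hsd17b7 probe sets above the filter had mean changes of -0.32 and -0.30. Nsdhl, a dehydrogenase of sterol demethylation, had a mean of -0.19 ± 0.44 and Sc5d, a sterol desaturase, of -0.27 ± 0.55, which were -0.04 and -0.08 without that lymphoma. Ebp, a sterol isomerase, was the 1 enzyme of the 17 with a positive mean, 0.03 ± 0.30, and had a change of 0.50 in lymphoma_4936.

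**Figure D2:**
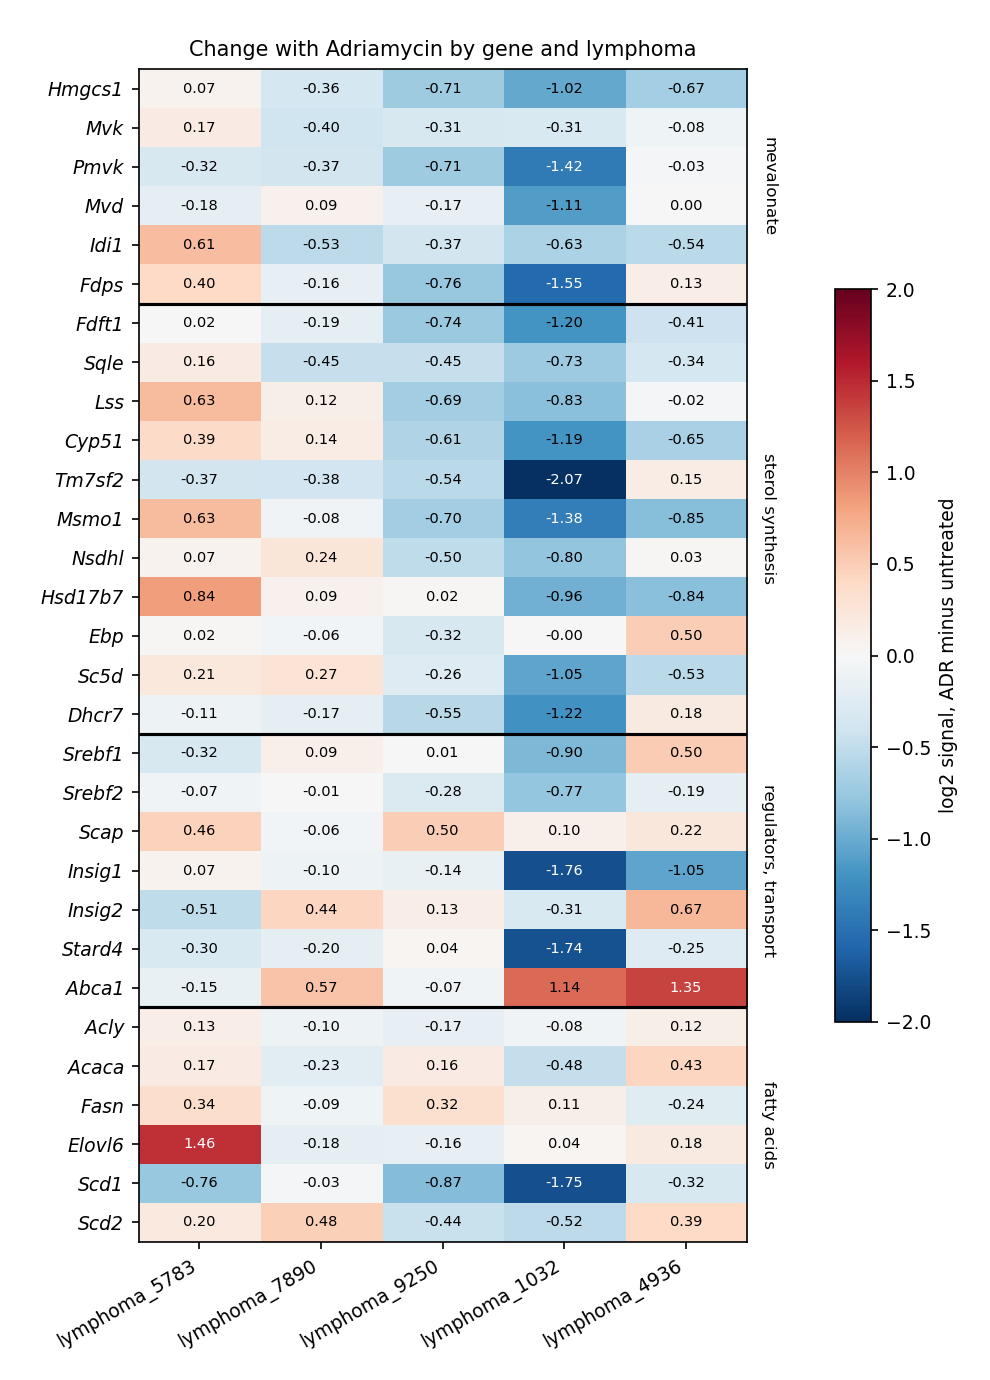
Change in log2 signal (ADR minus untreated) of each of the 30 measured genes (rows, grouped by role) in each of 5 lymphomas (columns), with blue for lower and red for higher with ADR and the value printed in each cell; colours stop at 2 in either direction. The column of lymphoma_1032 is negative for all 17 enzymes of the upper 2 blocks, down to -2.07, and that of lymphoma_5783 is positive for 13 of them.

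Set out by lymphoma, the 17 cholesterol enzymes differed in direction as well as size. The number lower with ADR was 4, 11, 16, 17 and 11 of 17 in the 5 lymphomas, and the median change was 0.16, -0.16, -0.54, -1.05 and -0.08. Over all genes tested the share that was lower was 46.3%, 51.5%, 52.9%, 65.6% and 43.6%, and the median change was 0.04, -0.01, -0.02, -0.17 and 0.06. Lymphoma_1032 had all 17 enzymes lower on a pair of arrays in which the median change of all genes was -0.17. In lymphoma_9250, with 16 of 17 lower, that median was -0.02. The part of such shifts in the enzyme changes was not tested. Without lymphoma_1032, 14 of the 17 enzymes and 19 of the 30 genes were lower on average, and the median of the 30 was -0.09. Without lymphoma_5783 the median of the 30 genes was -0.37 and 25 of them were lower.

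The 20 cell division genes listed beside the set, of which 19 were tested, did not follow the same order of lymphomas. Their median change was -1.42, -0.66, -0.74, -0.71 and 0.75, with all 19 lower in every lymphoma but lymphoma_4936, where 1 of 19 was. In lymphoma_7890, lymphoma_9250 and lymphoma_1032 both sets had negative medians, which were -0.16, -0.54 and -1.05 for the 17 cholesterol enzymes. In lymphoma_5783 the cell division genes were at their lowest while 13 of the 17 enzymes were higher. In lymphoma_4936 the cell division genes were higher while 11 of the 17 enzymes were lower, with a median of only -0.08. The plot of group medians sets these values side by side. With 5 lymphomas, no correlation between these measures was computed.

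**Figure D3:**
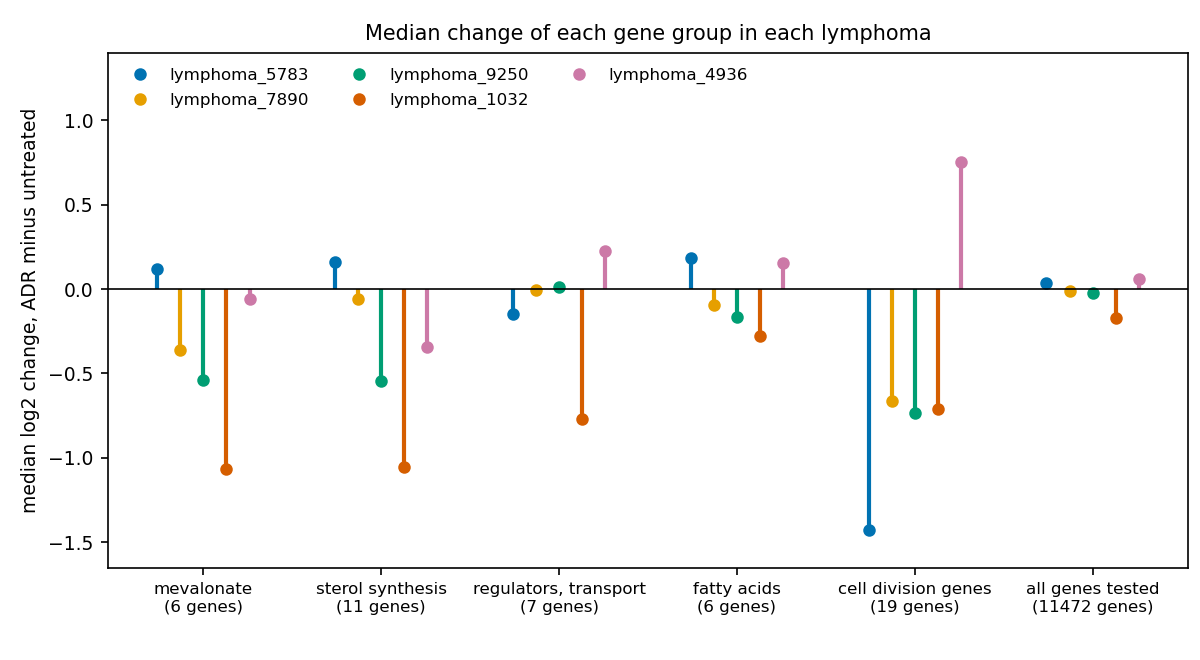
Median log2 change (ADR minus untreated) of each gene group in each lymphoma, 1 point per lymphoma joined to 0 by a line, with cell division genes and all genes tested for comparison. The mevalonate and sterol synthesis genes are lowest in lymphoma_1032 (-1.06 and -1.05) and above 0 in lymphoma_5783, in which the cell division genes are lowest.

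For most of the 30 genes, as for most genes on the arrays, the 5 untreated signals spanned more than the largest change within a lymphoma. A range over 5 lymphomas takes in more pairs of arrays than 5 changes do, so these are unlike measures. The range of the 5 untreated signals exceeded the largest change within any lymphoma for 14 of the 17 enzymes (82.4%) and 24 of the 30 genes (80.0%), close to the 74.9% of all genes tested. Set against each gene's untreated mean, the median deviation of the 17 enzymes was -0.68, -0.22, 0.13, -1.00 and 0.20 on the ADR arrays and -0.80, -0.21, 0.67, 0.06 and 0.35 on the untreated arrays. Untreated lymphoma_5783 was the lowest untreated array for 14 of the 17 enzymes, and untreated lymphoma_9250 the highest for 9. With ADR, lymphoma_1032 was the lowest for 11 and lymphoma_5783 for 4. The SD over lymphomas was smaller with ADR than untreated for 14 of 17 enzymes (82.4%), against 48.7% of all genes, with median SDs of 0.54 on ADR arrays and 0.63 on untreated arrays.

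**Figure D4:**
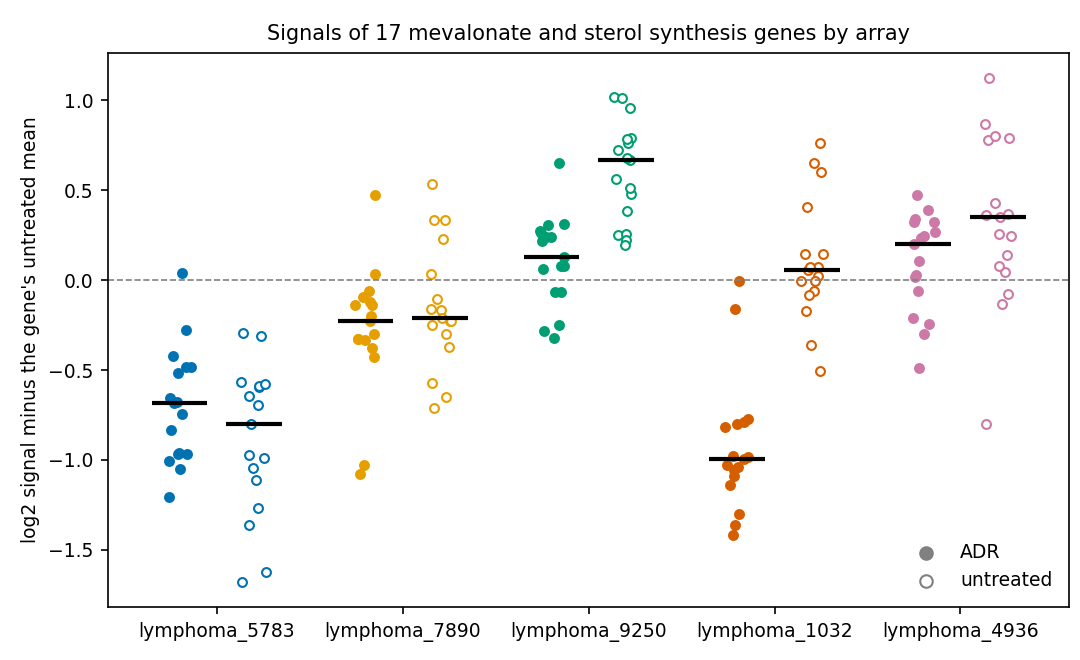
Log2 signals of the 17 mevalonate and sterol synthesis genes on each array, each gene given as its difference from its own untreated mean, with ADR arrays filled and to the left of the open untreated arrays of the same lymphoma; bars are medians over the 17 genes. The untreated arrays of lymphoma_5783 (median -0.80) and lymphoma_9250 (0.67) are the extremes without the drug, and the ADR array of lymphoma_1032 (-1.00) is the lowest of all 10.

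The 7 regulators and transport genes did not share 1 direction: 4 were lower and 3 higher on average, with a median of -0.12 that was 0.07 without lymphoma_1032. Srebf2, which encodes SREBP2, had signals of 7.60, 7.49, 7.97, 7.32 and 8.57 in ADR cells, against 7.67, 7.49, 8.25, 8.09 and 8.76 in untreated cells. It was lower in all 5 lymphomas, although by only 0.07 and 0.01 in lymphoma_5783 and lymphoma_7890, and its change was -0.26 ± 0.30 (adjusted p = 0.604 in limma), which was -0.14 without lymphoma_1032. The other Srebf2 probe set had a mean change of -0.55 and was also lower in all 5. Srebf1, which encodes SREBP1, had changes of -0.32, 0.09, 0.01, -0.90 and 0.50, a mean of -0.12 ± 0.52 that was 0.07 without lymphoma_1032.

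Scap, the escort of both SREBPs, was higher in 4 of 5 lymphomas, with changes of 0.46, -0.06, 0.50, 0.10 and 0.22 and a mean of 0.24 ± 0.24 (adjusted p = 0.602 in limma). Insig1, a retention factor that is itself a SREBP target, had signals of 6.48, 6.61, 7.21, 4.70 and 6.90 with ADR, against 6.41, 6.71, 7.35, 6.45 and 7.95 untreated. It was within 0.14 of its untreated signal in 3 lymphomas and lower by 1.76 in lymphoma_1032 and 1.05 in lymphoma_4936. The mean change was -0.60 ± 0.78 (interval -1.24 to 0.05, adjusted p = 0.579 in limma), and -0.31 without lymphoma_1032. Insig2, the related retention factor, had a mean of 0.08 ± 0.49 with 3 lymphomas higher and 2 lower.

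Stard4, a cytosolic sterol carrier, had changes of -0.30, -0.20, 0.04, -1.74 and -0.25, a mean of -0.49 ± 0.71 that was -0.18 without lymphoma_1032, and its other probe sets had mean changes of -0.23 and -0.37. Abca1, which exports cholesterol to lipoproteins and is a target of the sterol sensor LXR, had signals of 7.26, 8.79, 4.68, 8.42 and 9.31 in ADR cells, against 7.41, 8.22, 4.75, 7.29 and 7.96 in untreated cells. It was higher by 0.57, 1.14 and 1.35 in lymphoma_7890, lymphoma_1032 and lymphoma_4936, and near its untreated signal in the other two, of which lymphoma_9250 was close to the median of the table in both states. The mean change of 0.57 ± 0.68 (interval -0.00 to 1.14, adjusted p = 0.577 in limma) was the highest of the 30 genes, and was 0.37 without lymphoma_4936. The other Abca1 probe set above the filter did not follow it, with changes of 0.84, -0.29, 0.20, -0.52 and 0.42 and a mean of 0.13. Its mean level was 4.63, near the table's median of 4.43, against 7.41 for the probe set used. The mean of all Abca1 probe sets, which takes in another below the filter at 3.86, had a change of 0.20.

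**Figure D5:**
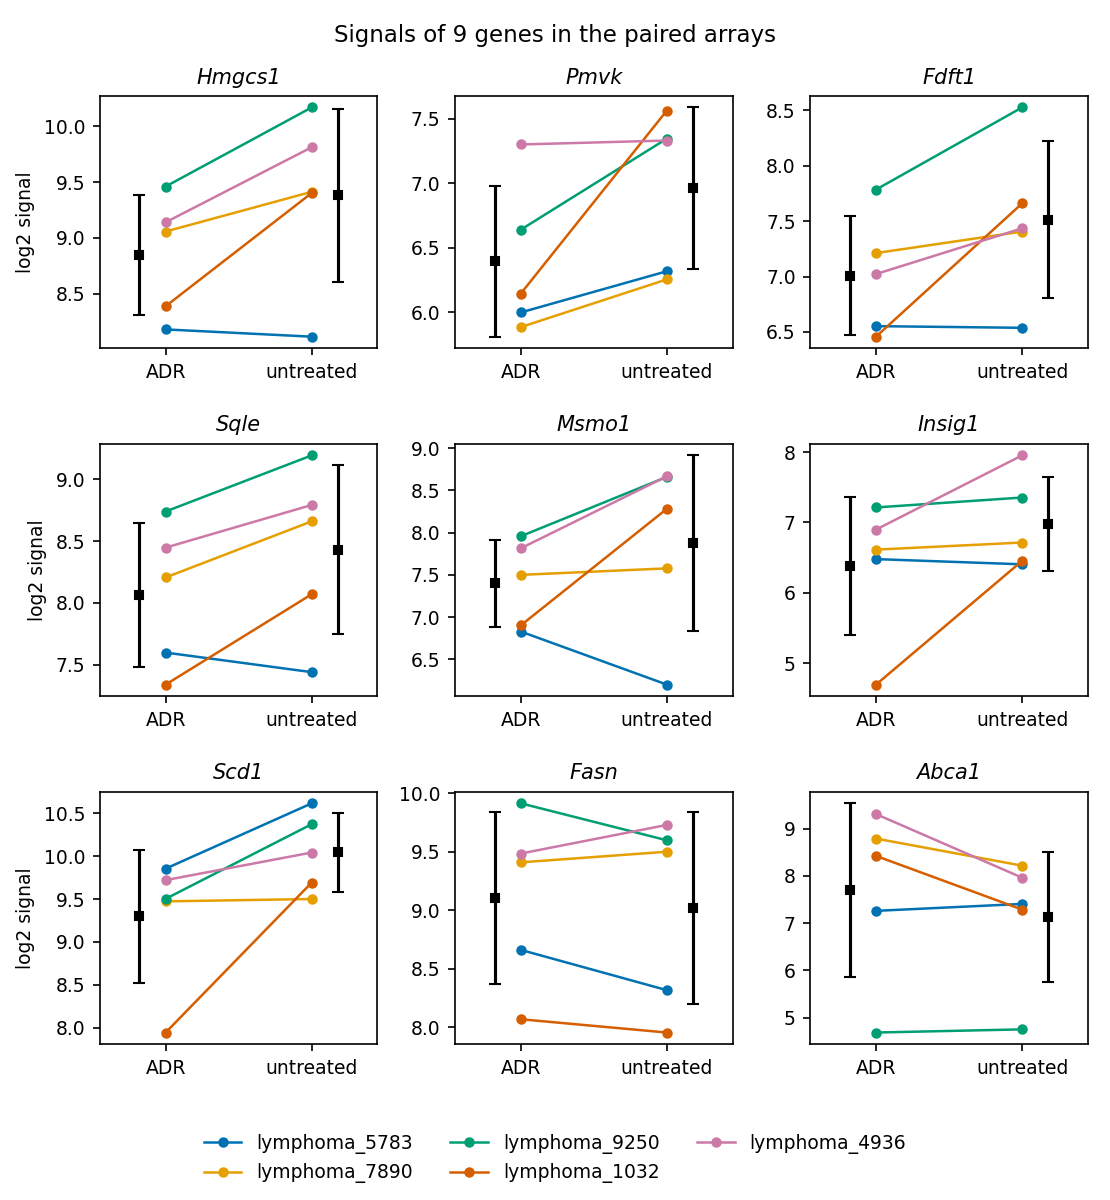
Log2 signals of 9 genes in the 5 lymphomas, with ADR on the left and untreated on the right of each panel, lines joining the arrays of 1 lymphoma and black squares giving the mean ± SD of each group. Hmgcs1, Fdft1, Sqle and Msmo1 lie higher on the untreated side in every lymphoma but lymphoma_5783, Scd1 and Pmvk in all 5, and Fasn and Abca1 in 2 of 5.

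The fatty acid synthesis genes did not share 1 direction either, with 2 of 6 genes lower on average and a median change of 0.02. Scd1, the stearoyl-CoA desaturase that makes monounsaturated fatty acids, had signals of 9.86, 9.47, 9.50, 7.94 and 9.72 in ADR cells, against 10.62, 9.50, 10.38, 9.69 and 10.04 in untreated cells. It was lower in all 5 lymphomas, by 0.03 in lymphoma_7890 and by 1.75 in lymphoma_1032. The change of -0.75 ± 0.66 (interval -1.30 to -0.19, adjusted p = 0.565 in limma) was the lowest mean of the 30 genes, corresponds to 0.596 of the untreated signal, and was -0.50 without lymphoma_1032. Another Scd1 probe set had a mean change of -0.96 and was lower in 4 of 5.

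Scd2, a desaturase of the same family, had changes of 0.20, 0.48, -0.44, -0.52 and 0.39 and a mean of 0.02 ± 0.47. Whether probes of Scd1 and Scd2 cross-hybridise was not tested. Fasn, the fatty acid synthase, had signals of 8.66, 9.41, 9.91, 8.07 and 9.48 with ADR, against 8.32, 9.50, 9.60, 7.95 and 9.73 untreated. It differed by at most 0.34 within any lymphoma, while the untreated lymphomas spanned 1.78, and its mean change was 0.09 ± 0.26 (interval -0.21 to 0.39). Acly, which supplies cytosolic acetyl-CoA, had a mean of -0.02 ± 0.14, and Acaca, the acetyl-CoA carboxylase, of 0.01 ± 0.36. Elovl6, an elongase, had a mean of 0.27 ± 0.68 that held 1.46 in lymphoma_5783 and was -0.03 without it.

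Genes of the same pathways outside the 30 were taken from 3 lists, and 0 of their tested genes passed the test in either direction. Of 17 tested genes of the wider SREBP and sterol pathway, 7 were lower and 10 higher on average, with a median of 0.02. The 4 with the smallest p were Lbr, a sterol reductase that also anchors chromatin at the nuclear envelope (-0.32 ± 0.24), Scarb1, a lipoprotein receptor (-0.24 ± 0.21), and the proteases that cut SREBP, Mbtps2 (0.19 ± 0.10) and Mbtps1 (0.17 ± 0.31). Scarb1 was lower and Mbtps2 higher in all 5 lymphomas, against 4.82% of all genes lower and 4.67% higher in all 5. The adjusted p of these 4 genes lay between 0.565 and 0.727 in limma.

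Of 25 tested genes of wider fatty acid metabolism, 15 were lower and 10 higher, with a median of -0.04. Of those with the smallest p, Acsl3, which activates fatty acids to acyl-CoA, was lower in all 5 lymphomas (-0.61 ± 0.48). Elovl1, an elongase of very long chains, was higher in all 5 (0.34 ± 0.13). Both had an adjusted p of 0.565 in limma. Over all genes 4.82% were lower and 4.67% higher in all 5. Acss2, which makes acetyl-CoA from acetate, had changes of -0.58, -0.41, -1.41, -1.45 and 0.31, and Acacb, the mitochondrial carboxylase, a mean of -0.49 ± 0.72. Of 10 tested LXR and efflux genes 5 were lower and 5 higher, with a median of 0.02. Apoe, the lipoprotein that takes up exported sterol (0.35 ± 0.35), Cyp27a1, a sterol hydroxylase (0.53 ± 0.68), Mylip, which degrades lipoprotein receptors (0.28 ± 0.38), and Abcg1, a sterol exporter (0.37 ± 0.67), were each higher in 4 of 5 lymphomas. They were named for having the smallest p of the 10, a choice that favours genes changing alike over the lymphomas. For these efflux genes the adjusted p lay between 0.577 and 0.657 in limma.

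Markers of other cells and signs of array quality were read beside these values. Of the macrophage markers all 20 had a named probe set and 14 of 20 were higher with ADR on average, with a mean level per array of 4.61 to 7.95 with ADR and 4.58 to 7.92 untreated. The mean change of the whole list was 0.34, 0.03, -0.08, 0.64 and 0.03, and that of the 14 tested markers, of which 13 were higher on average, was 1.14, 0.25, -0.15, 1.05 and 0.07. The complement genes C1qa, C1qb and C1qc with Mrc1, Mertk and Cd163 were below the filter. Of the fibroblast markers 22 of 24 had a named probe set and 16 of 22 were higher, with mean levels of 5.14 to 6.88 with ADR and 5.08 to 6.37 untreated and mean changes of 0.52, -0.03, 0.04, 0.33 and 0.06. For the 14 tested fibroblast markers, of which 11 were higher on average, the mean change was 0.74, -0.10, -0.03, 0.51 and 0.12. The fibroblast genes Col3a1, Pdgfra and Pdgfrb were among the 8 below the filter. Both lists thus had their highest mean changes in lymphoma_5783 and lymphoma_1032.

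The mean change of the 9 B-cell markers was -0.17, 0.31, 0.57, -0.44 and -0.44, with mean levels of 7.64 to 9.71 with ADR and 8.08 to 9.88 untreated. That of the 8 T-cell markers with a named probe set was -0.09, 0.03, 0.11, -0.37 and -0.04, and that of the 5 tested ones was 0.10, 0.31, 0.15, -0.18 and -0.06. The difference between the 3' and 5' control probe sets of Gapdh, a sign of RNA integrity, was 0.18 higher with ADR in lymphoma_7890 and differed by -0.04 to 0.06 in the other 4 pairs. For beta-actin it differed by -0.04, -0.02, 0.12, -0.02 and 0.07. The part of these markers, of cell division and of the lower signals of the ADR array of lymphoma_1032 in the changes of the cholesterol genes was not tested.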

How the data were processed

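The authors deposited log2 signals, 1 for each probe set on each array. The submitters' processing notes name RMA and Partek as tools. No version, setting or log base is given there, and the values were read as log2 from their range. Precision is limited by the number of arrays, 5 in each group. Genes were named through GEO's platform annotation, of 45101 probe sets 64 were controls, and a gene was tested if its probe set was above the median of the table on at least 5 of 10 arrays. Changes were fitted over 11472 genes with limma 3.58.1 in R 4.3.3 (lmFit, eBayes) with the lymphoma as a block, two-sided, with Benjamini-Hochberg adjustment over all genes and a threshold of 0.05. Means are ± SD over lymphomas, and intervals are limma's 95% intervals, which cover these 5 lymphomas and no repeat cultures.

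The lymphoma number in the labels pairs the arrays of 1 tumour, and across genes the deviations of paired arrays from their group means had correlations of 0.51 to 0.79. The members and lists were chosen with earlier results of these data known. Named were all 31 listed genes and, of each list of other pathway genes, the 4 with the smallest unadjusted p. Medians and counts over lists are descriptions with no test. Alternatives were no block, no or a stricter filter, the mean of all probe sets, renewed quantile normalization, centring, a trended and robust prior, weights per array, and each lymphoma left out in turn. Figures and counts used Python 3.11.15, pandas 2.3.3 and matplotlib 3.10.9.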

Additional observations from a re-analysis of the deposited data

Results flagged for a closer look

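Among the 5 lymphomas of a group, single values stood far from the other 4 by Dixon's ratio, with a critical value of 0.71, in 7 of 94 groups of values checked (7.45%), where chance gives about 1 in 20. Lymphoma_1032 was the far value in 4 of them. Its change of Mvd, the mevalonate decarboxylase, was -1.11, with the nearest other lymphoma at -0.18. On another Mvd probe set lymphoma_1032 had -1.28, with the nearest at -0.54. Its change of Stard4, the sterol carrier, was -1.74, with the nearest at -0.30. On the other Stard4 probe sets lymphoma_1032 had -0.54 and -1.07, with the nearest at -0.36 and -0.37. Its Scd1 signal with ADR was 7.94, with the nearest at 9.47, and its untreated Scap signal was 8.55, with the nearest at 9.03. In lymphoma_5783 the change of Idi1 was 0.61, with the nearest other lymphoma at -0.37, and that of Elovl6 was 1.46, with the nearest at 0.18. Abca1 in lymphoma_9250 had a signal of 4.68 with ADR and 4.75 untreated, and the nearest other untreated lymphoma was at 7.29.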

How the results depend on the processing

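Under 13 alternatives 0 genes of the whole table passed the threshold in limma, and the smallest adjusted p of any of the 30 genes was 0.277, without lymphoma_4936. Without the replicate block the number of genes at an unadjusted p under 0.05 was 262, against 973 with it, and the smallest adjusted p was 1.00. Without lymphoma_5783 that number was 551. The 30 genes were lower on average in 19 to 26 cases over the alternatives, lowest without lymphoma_1032, and 28 passed the stricter filter. The sign of the mean change was the same under every alternative for 21 genes. It turned in 19 of 388 values. Leaving out the block, changing the filter or using the trended and robust prior left each mean change as it was. Values under those settings could therefore not turn. With the mean of all probe sets Acly had 0.023, Acaca -0.059 and Scd2 -0.036, and with array weights Ebp had -0.032. Leaving out 1 lymphoma gave -0.095 to 0.13 for Acaca, -0.056 to 0.020 for Acly, -0.092 to 0.11 for Ebp, -0.028 to 0.38 for Elovl6, -0.42 to 0.026 for Hsd17b7, -0.063 to 0.23 for Insig2, -0.36 to 0.0085 for Lss, -0.093 to 0.16 for Scd2 and -0.28 to 0.072 for Srebf1. The cause was not tested. Probe sets above the filter disagreed in sign for Acly, Acaca and Scd2 of the 18 genes with more than 1.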
